A study of Mus musculus with 6 samples.

Results

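Complement is a set of secreted proteins, membrane receptors and inhibitors that mark cells, debris and synapses for removal. C1q binds a target and starts the classical pathway, C4 and C3 are then cleaved and deposited on it, and the small fragments released from C3 and C5 are sensed by the receptors C3aR1 and C5aR1. In the brain, C1q made by microglia is known for its part in the removal of synapses, and C1 inhibitor, the product of Serping1, blocks the proteases that travel with C1q. The 8 genes described here, of 27998 in the table, were taken by symbol and not by their values: the 3 chains of C1q (C1qa, C1qb, C1qc), the cleaved proteins C3 and C4b, the receptors C3ar1 and C5ar1, and the inhibitor Serping1. All 8 were found, and 7 of them passed the filter on low counts; C3 did not.

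The cells came from the preoptic region of the mouse hypothalamus, which takes part in parental and sexual behaviour, sleep and thermoregulation. The region was cut from fresh brains, cells were freed with protease and sorted for live ones, and their RNA was counted by the droplet-based 10x Chromium method as UMIs (unique molecular identifiers, 1 for each RNA molecule captured). There were 3 female and 3 male libraries, and each pooled 3 mice that were 60 to 70 days old and had lived singly for 3 days. No strain, genotype or further treatment is given in the labels. Libraries served as replicates, and cells did not.

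After cells with fewer than 500 genes, cells with over 20% mitochondrial UMIs and doublets were removed, 29822 of 31299 barcodes were kept, from 406 in female replicate 3 to 9365 in female replicate 2. Their classes were rebuilt from marker genes that include none of the 8 genes. They held 734 microglia, 48 macrophages, 6632 mature and 396 newly formed oligodendrocytes, 1565 oligodendrocyte precursors, 833 astrocytes, 487 endothelial cells, 452 mural cells (pericytes and smooth muscle), 64 fibroblasts and 18301 neurons. The classes bore their own markers: 9 of 10 microglial markers were found in at least 50% of microglia and 8 of 10 macrophage markers in at least 50% of macrophages, whereas microglial markers summed to 12220 to 17589 CPM (UMIs for each 1000000 UMIs counted) in microglia and to 3107 to 4871 CPM in macrophages. A level below is the CPM of a library's summed UMIs in a class, given where the class had at least 5 cells, which left 4 libraries for macrophages and 5 for fibroblasts. Female replicate 3, the smallest library, held 12 microglia and 5 mural cells. Barcode sequences that occurred in more than 1 library numbered 479 of 30815.

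The 3 C1q genes lie side by side on the minus strand of chromosome 4, in the order C1qb, C1qc, C1qa, from 136880129 to 136898803 in build GRCm38 (mm10) with the GENCODE annotation. This stretch of 18675 bases holds no other protein-coding gene. C1qb ends 3616 bases before C1qc begins, and C1qc ends 2851 bases before C1qa begins. The other 5 genes are spread over the genome, all on the minus strand: C3 on chromosome 17 at 57203970 to 57228136, C4b on the same chromosome at 34728380 to 34743882, C3ar1 on chromosome 6 at 122847138 to 122856161, C5ar1 on chromosome 7 at 16246743 to 16259540 and Serping1 on chromosome 2 at 84765387 to 84775444. No gene of either strand that is in the table overlaps any of the 8.

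RefSeq promoter windows (GRCm38.p6) were at hand for 5 of the 8, C1qb, C1qc, C3, C3ar1 and C5ar1. The upstream sequences of C1qb and C1qc, the neighbours that were high in the same cells, and of the receptor C3ar1, which was higher in microglia than in macrophages, read 5′ to 3′ on the gene's strand as follows, with every match to a searched motif in capitals and bases inside the annotated genes left out.
C1qb, chr4:136886201-136886450, minus strand: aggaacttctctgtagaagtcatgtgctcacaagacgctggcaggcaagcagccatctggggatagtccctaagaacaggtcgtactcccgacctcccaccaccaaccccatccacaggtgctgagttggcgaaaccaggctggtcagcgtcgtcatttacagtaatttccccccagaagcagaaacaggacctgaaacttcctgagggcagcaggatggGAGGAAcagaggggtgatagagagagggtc
C1qc, chr4:136893066-136893164, minus strand: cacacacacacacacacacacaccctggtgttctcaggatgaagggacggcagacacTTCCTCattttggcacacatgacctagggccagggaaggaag
C3ar1, chr6:122856162-122856407, minus strand: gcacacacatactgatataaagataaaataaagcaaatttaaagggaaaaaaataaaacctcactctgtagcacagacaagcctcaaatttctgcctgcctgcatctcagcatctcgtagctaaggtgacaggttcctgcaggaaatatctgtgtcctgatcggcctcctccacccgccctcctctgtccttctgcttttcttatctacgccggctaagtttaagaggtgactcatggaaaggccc
The motifs searched on both strands of the 250 bases before each start were GAGGAA, the core bound by the myeloid factor PU.1, TTCNNNGAA, the STAT site, CCAAT, the interferon-stimulated response element and the NF-kB site. GAGGAA was found once before C1qb, on the gene's own strand, and once before C1qc, on the other strand (TTCCTC as printed). C5ar1 held a CCAAT match at position −158 from the RefSeq start. Only the first 48 bases of that window lie outside the GENCODE gene, so the match is inside the annotated gene. C3 and C3ar1 held none of the 5 motifs. GAGGAA is common, in 23.3% of the 32851 promoter windows of the same length, and CCAAT is in 33.8%, so many other genes hold the same letters. The other motifs were in 2.98% (interferon-stimulated response element), 7.02% (TTCNNNGAA) and 1.21% (NF-kB site) of windows.

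C1q was counted mainly in the myeloid cells. C1qa, which encodes the A chain, stood at 6063, 6049 and 6796 CPM in microglia of female replicates 1, 2 and 3 and at 5254, 5698 and 5497 CPM in male replicates 1, 2 and 3. In macrophages it stood at 4459 and 5978 CPM in female replicates 1 and 2 and at 6934 and 9380 CPM in male replicates 1 and 2. The macrophage libraries spread more widely than the microglial ones and lay on both sides of them. The next class, fibroblasts, had a mean of 18.2 ± 29.3 CPM (SD, n = 5), and in the other classes the mean ran from 7.04 CPM in newly formed oligodendrocytes to 11.2 CPM in astrocytes. The mean CPM of microglia was 324 times that of fibroblasts, which had 6 C1qa UMIs in all, with no overlap between libraries. The fitted difference was 9.24 ± 0.44 log2 units (SE; adjusted p = 8.53e-30 by edgeR's quasi-likelihood test with Benjamini-Hochberg adjustment), and 8.30 when scaled by library size alone.

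C1qb encodes the B chain. Its level in microglia was 7767 ± 912 CPM (SD, n = 6), with libraries from 6806 to 8922 CPM, and in macrophages it was 5994 ± 1980 CPM (n = 4), with libraries from 3608 to 8032 CPM. C1qc, the C chain, reached 5379 ± 687 CPM in microglia (4603 to 6323) and 5544 ± 1424 CPM in macrophages (4059 to 6788). All other classes lay far below for both genes, at means of up to 17.7 CPM for C1qb in astrocytes and 11.3 CPM for C1qc in endothelial cells.

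The receptors followed the same cells. C3ar1, the receptor for the C3a fragment, stood at 776, 632 and 1308 CPM in microglia of the female replicates and at 763, 777 and 932 CPM in the male replicates. In macrophages it stood at 351 and 340 CPM in female replicates 1 and 2 and at 244 and 570 CPM in male replicates 1 and 2. Every microglial library, summed over all its microglia, lay above every macrophage library. C5ar1, the receptor for the C5a fragment, stood at 1854, 1233 and 2217 CPM in female and 2135, 1530 and 2568 CPM in male microglia. In macrophages C5ar1 stood at 1303, 1282, 1611 and 518 CPM in the same 4 libraries, and the classes overlapped. Outside these 2 classes the highest mean was 1.69 CPM for C3ar1, in mural cells, and 6.72 CPM for C5ar1, in fibroblasts.

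**Figure D1:**
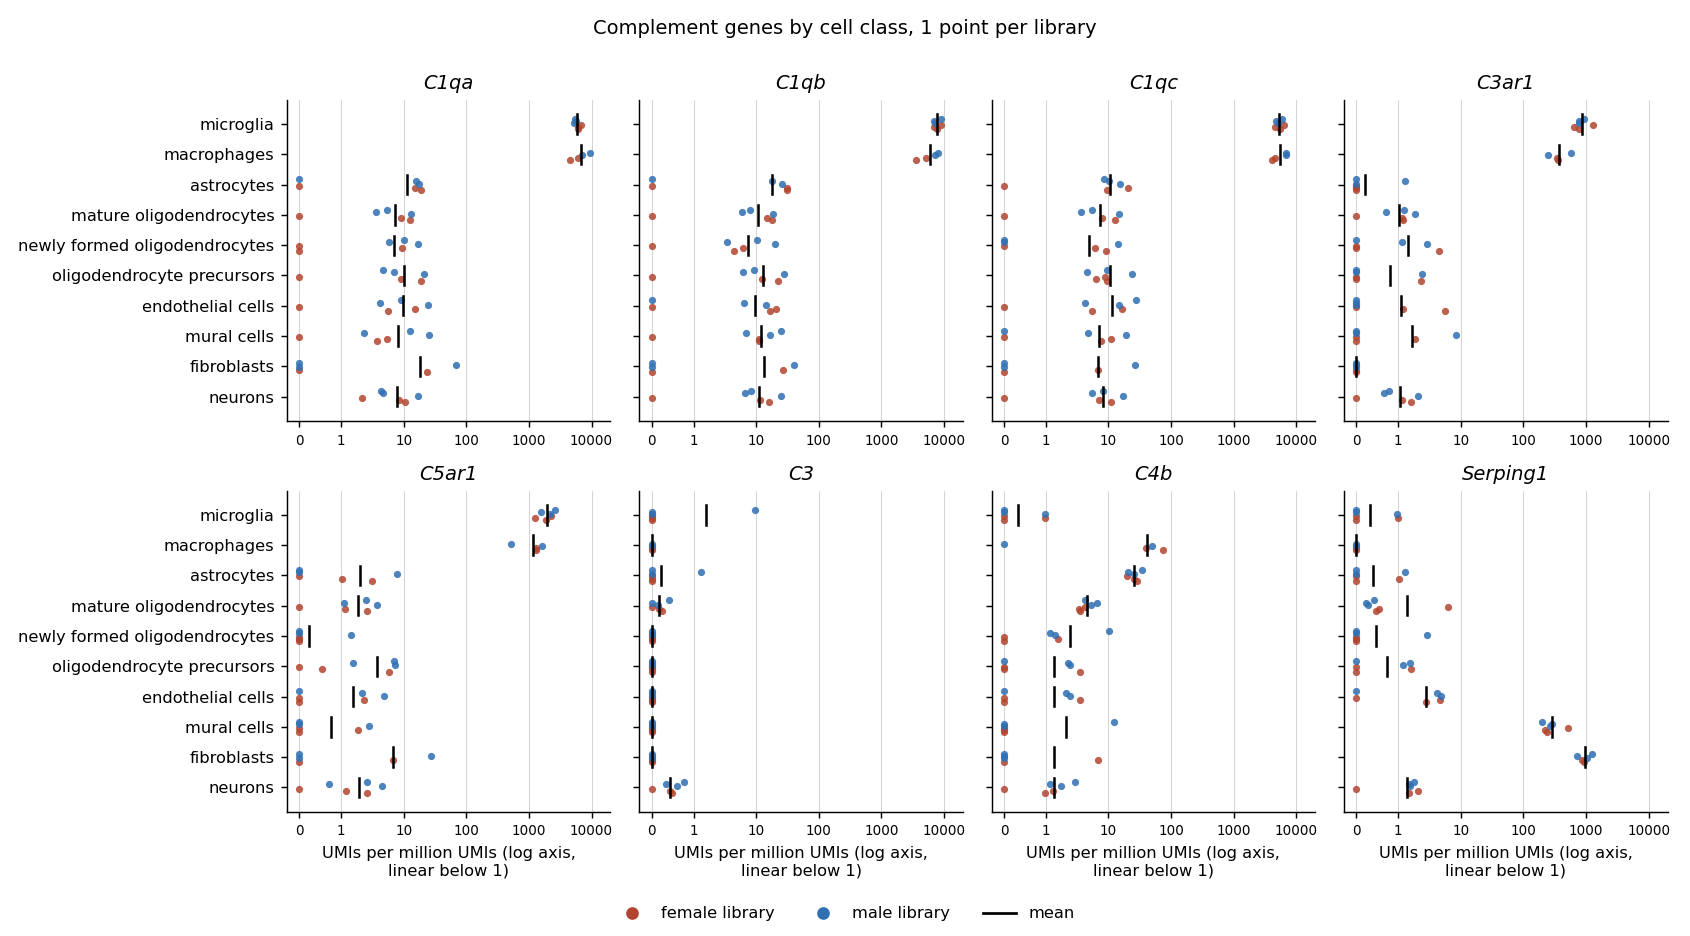
CPM of each gene (log axis, linear below 1) in 10 cell classes, with 1 point for each library (red female, blue male) and a black bar at the mean. C1qa, C1qb, C1qc, C3ar1 and C5ar1 sit high in microglia and macrophages, Serping1 in mural cells and fibroblasts, C4b in astrocytes and macrophages, and C3 is near 0 in every class.

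Each of these 5 genes was higher in microglia, and higher in macrophages, than in each of the 7 other non-neuronal classes, in 14 of 14 pairs for each gene (edgeR). Over all 10550 tested genes and the same 7 classes, 28.6% of tests were called higher in microglia and 8.54% higher in macrophages. The 5 genes passed the count filter mainly through microglia and macrophages and had few UMIs in the other classes. Being tested thus largely required them to be high in the myeloid cells, so the 14 calls are not read against those shares. The smallest difference over the 14 pairs was 7.73 log2 units for C1qb, 8.30 for C1qa, 8.41 for C1qc, 6.95 for C3ar1 and 6.97 for C5ar1.

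Between microglia and macrophages the sign of the C1qa and C1qc differences depended on the scaling. With TMM scaling, which sets a common level for most genes, 5 of the 7 tested members were called higher in microglia, beside 16.5% of all tested genes, and 1, C4b, lower, beside 2.09%. Calls in either direction covered 18.6% of all tested genes. In this pair, however, the median of all genes was itself 0.84 log2 units higher in microglia under TMM and −0.01 under library-size scaling. Against that median the members differed by 0.10 for C1qa, 0.18 for C1qc, 0.66 for C1qb, 0.59 for C5ar1 and 1.11 for C3ar1. With library-size scaling C1qa and C1qc took the opposite sign (0.10 and 0.02 higher in macrophages, edgeR adjusted p = 0.884 and 0.987), and C1qb and C5ar1, each 0.45 higher in microglia, lost their calls (edgeR adjusted p = 0.302 and 0.144). C3ar1 was called under both scalings, by 1.95 ± 0.24 log2 units with TMM (SE; edgeR adjusted p = 6.58e-10) and by 0.99 ± 0.24 with library size (adjusted p = 0.00292), and was higher in 4 of 4 paired libraries. The share of called genes that were higher in microglia fell from 88.8% to 43.8% between the scalings.

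Ratios between genes of the same cells need no scaling. C1qb made up 40.7% ± 1.65 of the C1q UMIs in microglia and 31.96% ± 5.17 in macrophages (SD, n = 6 libraries), and the share was higher in microglia in 6 of 6 libraries. By an exact two-sided sign-flip permutation test p was 0.03125, the smallest that 6 pairs allow, and 0.0469 after Benjamini-Hochberg adjustment over the 3 ratios compared. For each 1000 C1q UMIs there were 44.9 ± 7.98 C3ar1 UMIs in microglia and 18.6 ± 7.14 in macrophages, again higher in 6 of 6 libraries (exact p = 0.03125, adjusted 0.0469). C5ar1 gave 100.4 ± 20.8 in microglia and 83.2 ± 57.1 in macrophages, higher in microglia in 3 of 6 libraries (exact p = 0.4375). These 3 ratios were chosen after the levels had been seen, and female replicate 3 and male replicate 3 entered with 4 and 2 macrophages. Both lie below the minimum of 5 cells used for the levels. The p-values depend on them, because the 4 libraries that met this minimum are too few for this test to reach 0.05.

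Nearly every myeloid cell held all 3 C1q transcripts. They were found together in 732 of 734 microglia and in 46 of 48 macrophages, but in 36 of 18301 neurons. At least 1 C1qa UMI was counted in 99.7% of microglia (exact 95% interval 99.0 to 99.97) and in 95.8% of macrophages (85.7 to 99.5). Neurons, taken as the class to compare with, had a C1qa UMI in 6.96% of cells at a median depth of 7007 UMIs, against 5054.5 in microglia and 3119 in macrophages. When every cell was thinned to 1500 UMIs the shares were 99.3% in microglia (8 shallower cells left out), 95.7% in macrophages (2 left out) and 1.62% in neurons (81 left out). Counting intervals cover counting error only.

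C3ar1 was counted in 87.1% of microglia and 60.4% of macrophages, beside 1.03% of neurons, and in 59.0% of microglia, 26.1% of macrophages and 0.214% of neurons after thinning. C5ar1 was counted in 89.9% of microglia, 85.4% of macrophages and 1.596% of neurons, and in 78.2%, 73.9% and 0.390% after thinning. The C3ar1 intervals of the 2 myeloid classes did not overlap after thinning (55.3 to 62.6 against 14.3 to 41.1), and those of C5ar1 did (75.1 to 81.2 against 58.9 to 85.7). Cells were pooled over libraries for these intervals. They leave out the spread between libraries, and their overlap is no test of the classes. In female replicate 1, 1 cell of the microglial class carried at least 10 UMIs of the neutrophil genes S100a8 and S100a9; it held no UMI of the C1q genes and 8 of C5ar1, and without it C5ar1 in that library was 1864 instead of 1854 CPM.

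Among the 7 non-myeloid classes few differences in these low levels were called. C1qa, C1qc and C3ar1 were called in 0 of 21 pairs, C5ar1 in 3 and C1qb in 2, beside 43.5% of all such tests. These genes passed the count filter mainly through the myeloid cells and had few UMIs elsewhere. C3ar1 had from 0 UMIs in fibroblasts to 43 in mature oligodendrocytes, and C5ar1 from 1 in newly formed to 71 in mature oligodendrocytes. Such pairs could hardly be called, so the counts are not read against that share. C1qb was lower in newly formed oligodendrocytes than in astrocytes (edgeR adjusted p = 0.00961) and than in mature oligodendrocytes (adjusted p = 0.0403). With library-size scaling the latter difference went from 1.01 to 0.48 log2 units and lost its call (edgeR adjusted p = 0.396), and the former was fitted with TMM only. In microglia the 67289 C1q UMIs were 31.95% C1qa, 40.3% C1qb and 27.8% C1qc. In neurons the 4776 C1q UMIs were 29.2%, 42.2% and 28.6%, and in mature oligodendrocytes the 1081 UMIs were 28.2%, 43.5% and 28.3%. The macrophage make-up, 36.2%, 32.7% and 31.1% of 2817 UMIs, lay outside the exact 95% counting intervals of these 3 classes for C1qa and C1qb. The C1qa and C1qb shares of neurons and mature oligodendrocytes also lay outside the microglial intervals, by less and in the other direction. These intervals pool UMIs over libraries and cover counting error only. By library the microglial C1qb share ran from 38.99% in female replicate 2 to 43.8% in male replicate 3. That range holds the pooled C1qb shares of neurons and mature oligodendrocytes, so no difference of these classes from microglia is read here. Microglia held 80.3% of the C1qa UMIs of all kept cells, macrophages 3.81%, neurons 5.21% and cells with mixed markers 8.75%. Whether the low counts are free RNA was not tested beyond these values.

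**Figure D2:**
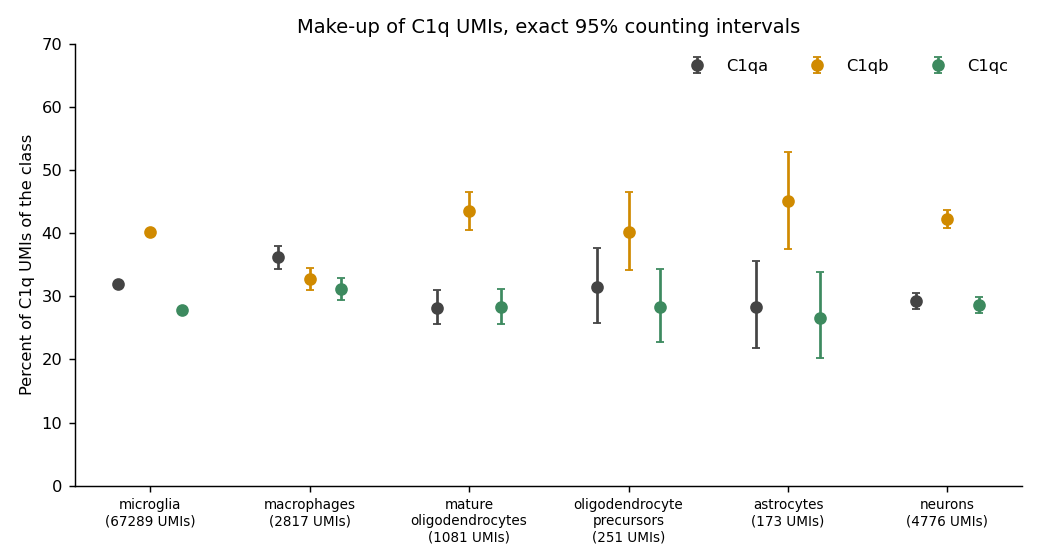
Percent of a class's C1q UMIs that came from C1qa, C1qb and C1qc, pooled over libraries, with exact 95% counting intervals, for the 6 classes with the most C1q UMIs. C1qb leads at 40.3% in microglia and also leads in mature oligodendrocytes, precursors, astrocytes and neurons. In macrophages it is at 32.7%, below C1qa at 36.2%.

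Within microglia the C1q genes and the receptors differed in opposite directions. A subcluster of 68 cells had low levels of the chemokine genes Ccl3 and Ccl4, and was found without the 8 genes. Over the 5 libraries with at least 5 such cells, Ccl3 was at 878 ± 618 CPM there and at 16806 ± 2091 CPM in the other 666 microglia (n = 6), and Ccl4 was at 1457 ± 1000 and 25976 ± 1708 CPM. The homeostatic microglial genes P2ry12 (3826 against 1324 CPM) and Tmem119 (1979 against 504 CPM) were higher in the Ccl-low cells, in 5 of 5 libraries. A subcluster against the rest is a description and carries no test.

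C5ar1 in the Ccl-low cells was 195, 105 and 302 CPM in female replicates 1, 2 and 3 and 21.2 and 217 CPM in male replicates 1 and 2. In the other microglia of the same libraries it was 2001, 1390, 2825, 2238 and 1558 CPM. No value of one set came near the other, and the ratio of the means was 12.7. C3ar1 was 142, 145, 0, 148 and 163 CPM in the Ccl-low cells and 832, 700, 1724, 793 and 790 CPM in the other microglia, a ratio of the means of 8.17 over all libraries used. The Ccl-low values of C3ar1, 0 to 163 CPM, thus lay below every macrophage library (244 to 570 CPM), opposite to microglia as a whole. These values rest on few molecules, 31 UMIs of C5ar1 and 36 of C3ar1 in 64 Ccl-low cells.

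C1qa, in contrast, was 8500 ± 876 CPM in the Ccl-low cells and 5648 ± 496 CPM in the others, a ratio of 1.505. C1qb was 9428 ± 1967 against 7474 ± 795 CPM and C1qc was 7322 ± 1061 against 5140 ± 567 CPM. Each of the 3 was higher in the Ccl-low cells in 5 of 5 libraries, though the gap for C1qb in male replicate 2 was small, 7157 against 7048 CPM. Among the 7 other microglial subclusters mean C5ar1 ran from 1222 to 2378 CPM and mean C3ar1 from 716 to 886 CPM. Mean C1qa ran from 4331 to 6605 CPM and mean C1qc from 3835 to 5384 CPM. None of these ranges reached the Ccl-low values. Mean C1qb ran from 6064 to 7951 CPM, which stayed below the Ccl-low mean but passed the lowest Ccl-low library, at 7157 CPM.

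**Figure D3:**
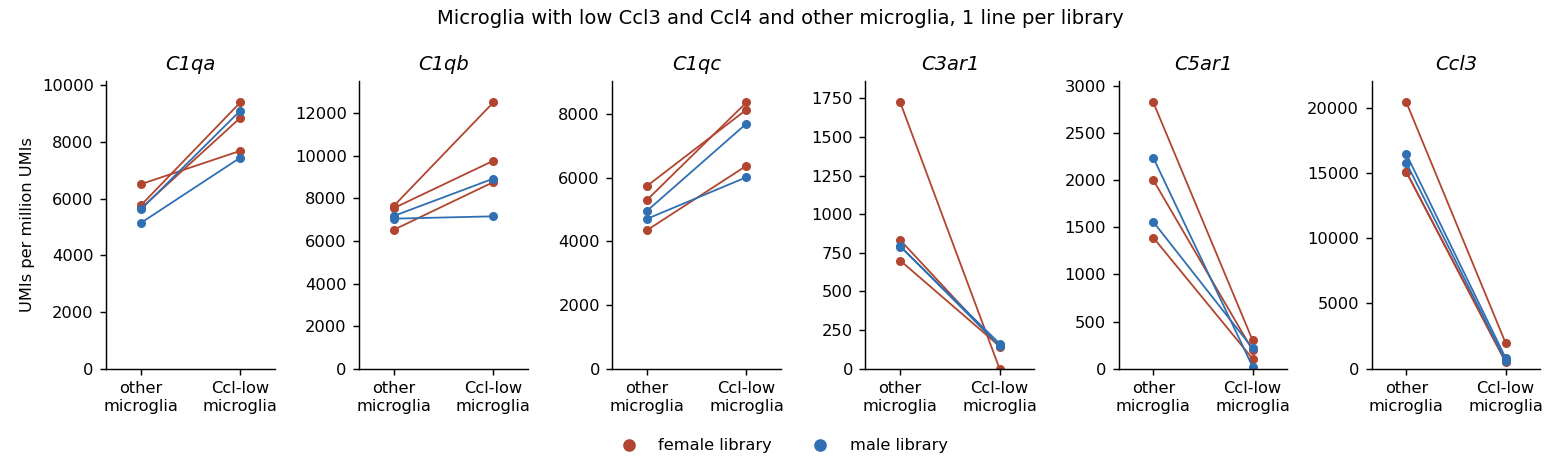
CPM of 6 genes in microglia with low Ccl3 and Ccl4 and in other microglia, with 1 line for each of the 5 libraries (red female, blue male). The lines of C1qa, C1qb and C1qc rise towards the Ccl-low cells, and those of C3ar1, C5ar1 and Ccl3 fall in every library.

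C4b, the mouse gene for complement C4, was higher in astrocytes than in mature oligodendrocytes. C4a, its near copy, is not in the table under that symbol. How reads shared by both were counted is not known, so every C4b value is uncertain as to which of the genes it counts. In astrocytes it was 28.4, 25.5 and 19.7 CPM in the female replicates and 25.1, 20.7 and 34.0 CPM in the male replicates. In mature oligodendrocytes it was 3.56, 3.39 and 4.21 CPM in the female and 5.20, 6.64 and 4.17 CPM in the male replicates. Every astrocyte library lay above every oligodendrocyte library. The difference was 1.86 ± 0.29 log2 units (SE; edgeR adjusted p = 3.67e-08), as it was against the median of all genes (1.86), and C4b was the only 1 of 7 tested members called in this pair, beside 64.9% of all genes. Of the others, C3ar1, C5ar1 and Serping1 had 1, 9 and 2 UMIs in astrocytes and could hardly be called.

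C4b levels rested on few molecules, 78 UMIs in 833 astrocytes and 187 in 6632 mature oligodendrocytes. A C4b UMI was seen in 7.80% of astrocytes (exact 95% interval 6.07 to 9.84) and 2.44% of mature oligodendrocytes (2.08 to 2.84), beside 1.05% of neurons (0.907 to 1.21). After thinning the shares were 3.58%, 0.576% and 0.274%, and the intervals still did not overlap (2.39 to 5.13, 0.408 to 0.790 and 0.204 to 0.362). Here too the intervals pool cells over libraries and are no test of the classes. Mature exceeded newly formed oligodendrocytes by 1.78 ± 0.55 log2 units (edgeR adjusted p = 0.00542), beside 45.6% of all genes, with only 5 UMIs in the newly formed cells, and with library-size scaling this pair missed the threshold (adjusted p = 0.0532). From newly formed oligodendrocytes, at 2.39 CPM, down to fibroblasts and microglia, at 1.34 and 0.329 CPM, no neighbours in the order differed.

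In macrophages C4b had the highest mean, 40.8 ± 31.2 CPM, from 75.2, 39.2, 48.8 and 0 CPM in 4 libraries, but from 7 UMIs in all. It did not differ there from astrocytes (0.83 ± 0.64 log2 units, edgeR adjusted p = 0.335, beside 29.1% of genes called). Against microglia, with 2 C4b UMIs in 734 cells, the ratio of pooled levels was 83.9, with a counting interval of 16.0 to 828, and the edgeR test called the difference under both scalings (adjusted p = 3.01e-05 with TMM and 4.12e-06 with library size). Summed astrocyte markers in these macrophage libraries were at 51.8 to 244 CPM, against 9603 to 18648 CPM in astrocytes.

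Serping1 was highest in fibroblasts and mural cells. In fibroblasts it was 941 and 850 CPM in female replicates 1 and 2 and 1051, 713 and 1244 CPM in the male replicates. In mural cells it was 240, 219 and 511 CPM in the female and 262, 282 and 199 CPM in the male replicates. Every fibroblast library lay above every mural library, and the difference was 1.59 ± 0.17 log2 units (SE; edgeR adjusted p = 2.39e-12), the only call among 7 members in this pair beside 17.1% of all genes. The other tested members had 0 to 20 UMIs in either class, so this count is not read against that share. The value of female replicate 3 in mural cells came from 5 UMIs in 5 cells.

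Endothelial cells, which line the same vessels, had 9 Serping1 UMIs in 487 cells, a mean of 2.75 ± 2.26 CPM. Mural cells exceeded them by 6.02 ± 0.29 log2 units (edgeR adjusted p = 7.53e-29), again the only member called, beside 27.5% of all genes. The other tested members had 1 to 33 UMIs in either class, so this count too is not read against that share. With cells limited to those that passed the marker gate the Serping1 difference was 10.4. Endothelial cells were called higher than mature oligodendrocytes by 2.43 ± 0.62 (edgeR adjusted p = 0.000473, beside 62.8% of genes called), but the ratio of mean CPM was 2.00, the libraries overlapped and 4 of 6 showed the direction. Below these classes no neighbours differed, and macrophages had no Serping1 UMI, where C1q was high. A Serping1 UMI was seen in 92.2% of fibroblasts (exact 95% interval 82.7 to 97.4) and 57.7% of mural cells (53.0 to 62.3), beside 1.31% of neurons, and in 71.0%, 32.7% and 0.225% after thinning. Summed fibroblast markers were 119 to 486 CPM in mural cells and 15734 to 22490 CPM in fibroblasts.

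Serping1 was counted in mural subclusters of both kinds, a description with no test. In the mural subcluster rich in Kcnj8 and Abcc9, 2 pericyte genes, Serping1 averaged 276 CPM, and in the 4 subclusters rich in Acta2, a smooth muscle gene, it averaged 200 to 344 CPM. The value in the Kcnj8 subcluster came from 16 UMIs in 24 cells of 3 libraries. Its leading genes included Dcn, one of the fibroblast markers, and fibroblasts were the class with the highest Serping1. In the remaining subcluster, whose leading genes included neuronal ones, it averaged 49.1 CPM. Vitronectin (Vtn), another secreted inhibitor of complement, was at 12386 CPM in the Kcnj8 subcluster and at 557 to 1344 CPM in the others.

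C3, the hub of the cascade, was hardly counted in any class. All kept cells held 77 C3 UMIs, of which 68 (88.3%) were in neurons. Neurons held 71.0% of the UMIs of the 10 classes, which leave out dividing, mixed and unnamed cells and 2 of the 77 C3 UMIs. Microglia had 1, astrocytes 1, mature oligodendrocytes 5, and macrophages, fibroblasts, mural and endothelial cells none. For microglia the exact 95% interval of cells with a C3 UMI was 0.00345% to 0.757%, and for macrophages it reached 7.40%. C3 was therefore neither tested nor ranked. Within neurons 22 of the 68 UMIs were in the cluster marked by Trh and Slc17a6, which held 2405 cells with at least 5 in a library. Other neuron clusters held up to 10 each, and the clusters were not compared.

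No member was called different between the sexes. In microglia 0 of 5 tested members were called, beside 0.0832% of 6010 genes (5 genes, with 183 at an unadjusted p under 0.05, none of them a member). C1qa was 6303 ± 427 CPM in females and 5483 ± 223 CPM in males (SD, n = 3 each), and the 2 sets did not overlap, but the TMM-scaled difference was 0.06 ± 0.23 log2 units (edgeR unadjusted p = 0.799). C5ar1 had the largest difference among microglial members, 0.39 ± 0.25 log2 units lower in females (1768 ± 498 against 2077 ± 522 CPM; edgeR unadjusted p = 0.131, adjusted p = 1.00), and its libraries overlapped. C1qb, C1qc and C3ar1 differed by −0.14 ± 0.22, −0.09 ± 0.23 and −0.11 ± 0.26 log2 units (SE), female minus male, and their libraries overlapped.

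C4b in astrocytes differed by 0.17 ± 0.40 log2 units, female minus male, and 0 of 2 tested members were called in that class, beside 0.0388% of genes. In mature oligodendrocytes C4b was 3.72 ± 0.432 CPM in females and 5.34 ± 1.24 CPM in males, a difference of −0.68 ± 0.32 log2 units (edgeR unadjusted p = 0.0601, adjusted p = 1.00), and 0 of 5 members were called beside 0.0545% of genes. With precursors 0 of 2 were called (0.0523% of genes), and in endothelial cells, where 0.0348% of genes were called, no member passed the filter. With 200 simulated 4-fold changes in the microglial sums, edgeR called 99% of them. These changes were placed in well-counted genes, with a spread set beforehand and not estimated from the libraries. Smaller differences, and genes of few UMIs such as C4b in astrocytes, were not simulated. DESeq2 also called no member in microglia. Serping1 was not tested by sex, because the test was limited to classes with at least 10 cells in every library, a minimum that mural cells missed in female replicate 3 and fibroblasts in 3 libraries. Its mean in mural cells was 323 ± 163 CPM in females and 248 ± 43.3 CPM in males.

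**Figure D4:**
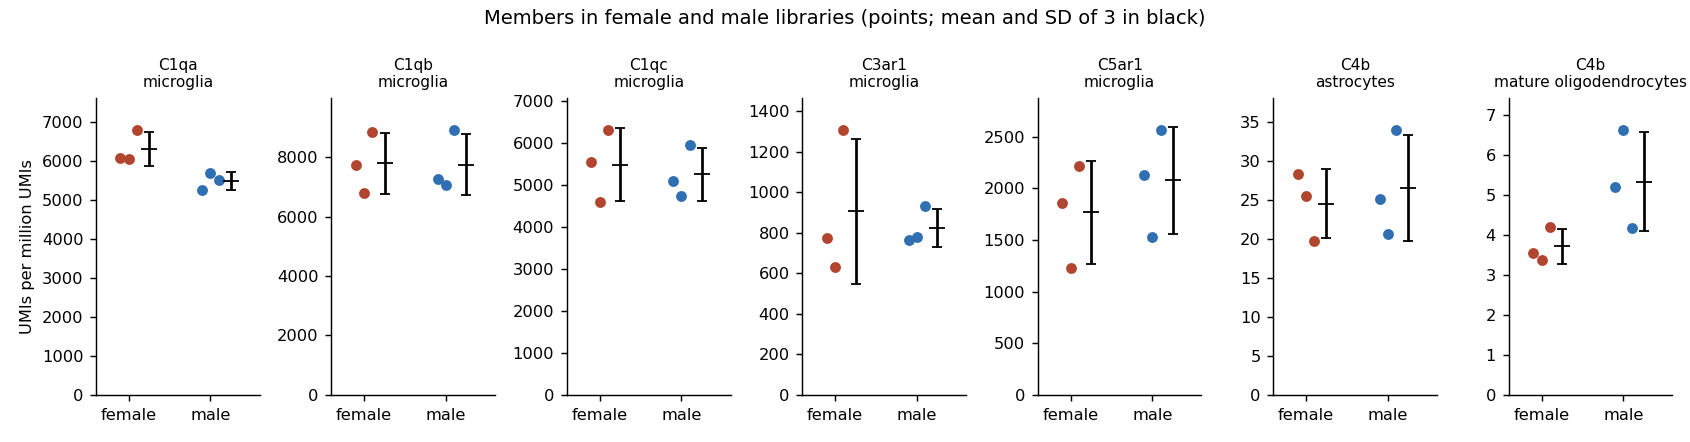
CPM in the 3 female and 3 male libraries (points) with the mean and SD in black, for 5 genes in microglia and C4b in astrocytes and mature oligodendrocytes. The C1qa points of the sexes do not overlap, those of the other genes do, and no difference was called.

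The rest of the cascade was read from a list of 50 other complement genes, of which 49 were in the table, 44 had at least 1 UMI and 18 passed the filter. Among the highest by CPM in microglia were Calr (calreticulin, a partner of C1q on cell surfaces) at 466 ± 136, and Itgb2 and Itgam (the 2 chains of complement receptor 3, which binds cleaved C3) at 281 ± 101 and 252 ± 73.0 CPM. In macrophages they included Calr at 321 ± 98.4, Cfp (properdin, which stabilises the C3 convertase) at 294 ± 197 and Fcna (ficolin A, a lectin that starts the lectin pathway) at 110 ± 92.5 CPM. Astrocytes were led by Clu (clusterin, an inhibitor of the terminal complex) at 3061 ± 1065 CPM, fibroblasts and mural cells by Vtn at 3939 ± 833 and 2500 ± 2166 CPM, and endothelial cells by Vtn at 308 ± 380 CPM, followed by Calr, Cd59a and Cd93.

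Microglia and macrophages differed in 8 of the 18 listed genes under TMM scaling, beside 18.6% of all tested genes. Of the 8, 5 were higher in microglia, beside 16.5% of all tested genes, and 3 were lower, beside 2.09%. Itgb2 (3.07 ± 0.36 log2 units) and Itgam (2.59 ± 0.38) were higher in microglia, and Cfp (−6.87 ± 0.56), Colec12 (−7.81 ± 1.91), a scavenger collectin, and C2 (−6.00 ± 1.24), the protease that joins C4b in the convertase, were lower (edgeR adjusted p of 0.00146 or less). Each of these differences was larger than the 0.84 log2 units of the median gene, and the median of the 18 was 1.79. Astrocytes and mature oligodendrocytes differed in 10 of 18, of which 7 were higher in astrocytes, beside 64.9% of all tested genes called in this pair. As mature oligodendrocytes minus astrocytes, Clu was at −5.41 ± 0.21 log2 units and C2 at −3.51 ± 0.39, while Cd59a, which blocks the membrane attack complex, was 2.71 ± 0.34 higher in mature oligodendrocytes (edgeR adjusted p of 1.19e-10 or less).

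Between fibroblasts and mural cells 6 of 18 listed genes were called, beside 17.1% of all tested genes (edgeR). Of these 6, 4 were higher in fibroblasts, among them Colec12 (−3.85 ± 0.30 log2 units, mural cells minus fibroblasts), and 2 were higher in mural cells. C1s1, a protease of the C1 complex that C1 inhibitor blocks, was one of the latter, at 156 ± 74.5 CPM in mural cells, and it was lower in endothelial than in mural cells, by −7.85 ± 0.52 log2 units (edgeR adjusted p = 1.84e-19). In that pair 4 listed genes were higher in endothelial cells, with Cd59a at 2.91 ± 0.28 and Cd93 at 2.79 ± 0.26 log2 units, and 4 were lower. Of all tested genes 27.5% were called there. No listed gene was called by sex, with 8 to 11 tested in each of 5 classes, beside 0.0348% to 0.0832% of all tested genes.

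Genes whose level followed a member most closely over 57 sums of class and library, by Pearson's r of log2(CPM + 1), were microglial and macrophage genes for C1q and the receptors. The sums share libraries and depth, and the r values are descriptions. For C1qa they were Tyrobp and Csf1r (r = 0.952 and 0.951), followed by Fcrls, for C1qb Fcer1g, Csf1r and Fcrls (0.954, 0.951 and 0.943), for C1qc Fcer1g, Fcrls and Ctss (0.968, 0.951 and 0.951). For C3ar1 they were Igsf6, Tbxas1 and Ccl6 (0.976, 0.972 and 0.971), and for C5ar1 Fcrls, Ptafr and Fcgr3 (0.966, 0.960 and 0.959). Serping1 was nearest to Ogn, Foxs1 and Slc6a20a (0.962, 0.949 and 0.941), and Ogn was one of the fibroblast markers. C4b had no close match, with Rnase1, Cbs and Cd38 at 0.653, 0.628 and 0.617.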

How the data were processed

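Droplet counts of UMIs per gene and cell were deposited by the authors as 1 matrix for all 6 libraries; they were made with Cell Ranger 2.0.0 on build mm10, per the submitters' processing notes. Annotation, strand setting, cell-calling rule and kit chemistry: not given in the sources used here. The libraries held 1278429 to 81162330 UMIs. Of 31299 barcodes, 475 failed the filters of 500 genes and 20% mitochondrial UMIs and 1002 were called doublets by Scrublet (expected rate 0.06). No cell annotation of the authors was used, so classes were rebuilt by Leiden clustering (scanpy 1.11.5, 2000 variable genes, 30 components, resolution 1.0), without the 8 genes and the pathway list, and classes may therefore differ from those of the study. Myeloid and mural cells were clustered a second time, a step chosen after seeing the data.

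Counts were summed by class and library. Classes were compared with edgeR 4.0.16 (quasi-likelihood test, TMM scaling, minimum count 10, library as a block) over 51 sums of at least 5 cells and 10550 genes, and the sexes within classes with at least 10 cells in each library. P-values were adjusted by Benjamini and Hochberg over all genes tested, with a threshold of 0.05. The libraries are separate pools, and sex and pool are not otherwise blocked. The labels do not state whether same-numbered libraries of the sexes were prepared together, and the main sex tests did not pair them. In microglia 5 of 6 libraries correlated best with the same-numbered library of the other sex. A replicate block was therefore run as an alternative. Both tests were tested on simulated data, where 198 of 200 genes changed 4-fold were called by sex in microglia (5927 genes, 9 false calls). For microglia against macrophages alone, a smaller fit of 1409 genes than the one over all classes, 200 of 200 were called, with 8 false calls. The alternatives were library-size scaling, DESeq2 1.42.0, no count filter, the block, doublets kept, other cell minimums and gates, and each library left out. The genes named are the 8 members, up to 4 called pathway genes in each direction by size of difference, the up to 4 pathway genes of highest CPM in a class, the 3 genes of highest r with each member, and Ccl3 and Ccl4; other genes named beside subclusters were chosen after their values were seen. A pathway gene that this rule names is not reported here. The members and lists were chosen with earlier results of these data known.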

Additional observations from a re-analysis of the deposited data

Results flagged for a closer look

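Of 14 groups of 4 to 6 libraries, 1 held a library far from the others. Serping1 in mural cells was 511 CPM in female replicate 3, and its gap to the next library was 0.734 of the whole range, above the 95% limit of Dixon's test for 6 libraries. That value came from 5 cells. Chance gives about 1 such group in 20.

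Cells with mixed markers, which entered no comparison, held 8.01% of all C1qb UMIs and 7.38% of all C5ar1 UMIs in the kept cells.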

How the results depend on the processing

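Of the recomputed values, 382 kept direction and side of the threshold (counts: stayed within 1.5 times), 7 lost their call, 9 reversed and 16 counts moved further. With library-size scaling, C1qa and C1qc between macrophages and microglia reversed to 0.10 and 0.020, C1qb and C5ar1 (0.45 each) lost their calls, the members called fell from 6 to 2 and all genes called from 1959 to 874. All genes called in that pair were 1285 with no count filter, 981 with doublets kept and 1142 (without male replicate 2) to 2114 with 1 library left out. C1qa and C1qc also lost their calls without the block (−0.69 and −0.81) and with doublets kept (−0.34 and −0.43), and C1qa without female replicate 1 (−0.79). C3ar1 stayed higher in microglia by 0.99 to 2.83, C4b higher in astrocytes than in mature oligodendrocytes by 1.52 to 2.51, where it passed the filter, and Serping1 higher in fibroblasts than in mural cells by 1.39 to 1.91. Serping1 in mural against endothelial cells ran from 5.88 to 10.4, the latter with the marker gate. Members called between mature oligodendrocytes and astrocytes, 1 at first, were 3 with library-size scaling, 2 without male replicate 2, and 0 with the marker gate or the first clustering alone, where C4b did not pass the filter. Between endothelial and mural cells they were 2 with doublets kept.

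For sex in microglia, values near 0 changed sign: library-size scaling gave 0.0094 (C1qb), 0.060 (C1qc) and 0.015 (C3ar1), DESeq2 gave −0.0090 (C1qa), and with 1 library left out C3ar1 ran from −0.24 to 0.059 (without female replicate 2) and C1qa from −0.0050 (without male replicate 3; −0.0043 without male replicate 1) to 0.12. No member was called under any of these. All genes called, 5 at first, were 3 with DESeq2, 30 with no filter, 3 with doublets kept and 4 to 21 with 1 library left out (21 without male replicate 1, 9 without male replicate 3). Same-numbered libraries correlated by 0.176, 0.037 and 0.106, and 5 of 6 correlated best with their own number; with the replicate block 11 genes were called. A minimum of 20 cells left no macrophages, and the marker gate left 12. The cause of these changes was not tested.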
